A study of Homo sapiens and Mus musculus with 10 samples.

Results

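The aminoacyl-tRNA synthetases are the enzymes that join each amino acid to its tRNA. The module described here holds 37 genes chosen by name: 20 cytosolic synthetases, 16 mitochondrial synthetases whose symbols end in 2, and XPOT, the exportin that carries mature tRNA out of the nucleus. Members were found by symbol in 2 tables of read counts per RefSeq transcript, and 36 of the 37 had a row in at least 1 table. For 30 of them (16 cytosolic, 13 mitochondrial and XPOT) the same transcript was counted in both tables, among 10368 such transcripts in all, and these 30 were tested. WARS, NARS2 and EARS2 had a different transcript in each table. VARS2 had a row in 1 table only, and CARS and HARS had a row in the other only. TARS had a row in neither table, so only its promoter was examined here.

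Human cells keep separate sets of synthetases for the cytosol and for the mitochondrion, both encoded in the nucleus, although GARS and KARS each give both forms from 1 gene. Several cytosolic synthetases sit together in the multisynthetase complex, and all fall into class I or class II by the fold of their catalytic domain. Many of the cytosolic genes and XPOT are known targets of ATF4, the transcription factor of the integrated stress response, which binds a C/EBP-ATF composite element. Loss of glucose and stress of the endoplasmic reticulum (ER) are known triggers of that response.

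The cells were HEK293T, a human embryonic kidney line, and RNA was sequenced after removal of ribosomal RNA in 7 libraries. Wild-type (WT) cells deprived of glucose for 24 h (GD) gave 2 libraries, and UFD1s-deficient cells deprived of glucose for 24 h gave 1. WT cells treated for 6 h with 300 nM thapsigargin (TG), which blocks the calcium pump of the ER and causes ER stress, gave 1 library. UFD1s-deficient cells under mock treatment gave 1 library, and WT cells under mock treatment gave 2. The titles place 1 WT library each of GD, TG and mock in a stress set, and 1 library each of deficient GD, WT GD, deficient mock and WT mock in a genotype set. UFD1s names a form of UFD1, a cofactor of the ATPase VCP, and the labels do not say how the deficient line was made or whether it is 1 clone. Nothing in the labels says that libraries came from separate cultures, so the spread between them may be technical. In bulk RNA, fewer cells with a transcript and less of it per cell cannot be told apart.

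Libraries held 11461365 to 19024327 counted reads. The WT mock libraries of the stress set and the genotype set gave a chi-square over degrees of freedom of 73.6, and deficient and WT mock of the genotype set gave 17, so the sets were kept apart as a term of the fit. HEK293T markers summed to 19178 to 23636 reads per library over the 7 or 8 of 9 with a row, while blood and hepatocyte markers held 0 to 5 reads. VIM made up most of the HEK293T sum, at 11447 to 16304 reads, and in the stress set 5 or 6 of the 9 reached 10 reads. Endothelial markers, 1 of 3 with a row in the genotype set, held 31 to 91 reads. Fibroblast markers, 1 or 2 of 3 with a row, held 22, 10 and 30 reads in GD, 76 in TG and 110, 60 and 101 in mock, and their part in the GD results was not tested. The UFD1 transcript counted in the genotype set had 193 reads in deficient GD, 199 in deficient mock, 107 in WT GD and 168 in WT mock. It was not stated to cover the part missing in the deficient line, so it checks nothing about the genotype label.

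The core of the C/EBP-ATF element, TGATGNAA or its reverse TTNCATCA, was searched on both strands from 250 bases before to 50 after each annotated start (RefSeq, GRCh38.p14), because members that move together can be set beside what their promoters share. Of the 37 genes, 31 had such a window. The core was present in 7 of 16 cytosolic genes (43.8%), 1 of 14 mitochondrial genes (7.14%) and 0 of 1 for XPOT, beside 3.6% of 15843 protein-coding genes. No other motif was searched. Among the tested members that hold it, the windows around the match in 5, 4 cytosolic and 1 mitochondrial, written 5′ to 3′ on the gene's strand with the core in capitals, were as follows.
AARS, chr16:70289675-70289704, minus strand: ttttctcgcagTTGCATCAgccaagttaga
GARS, chr7:30594834-30594863, plus strand: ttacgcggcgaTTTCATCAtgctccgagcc
IARS, chr9:92293692-92293721, minus strand: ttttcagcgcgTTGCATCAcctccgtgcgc
MARS, chr12:57488053-57488082, plus strand: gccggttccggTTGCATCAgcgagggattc
YARS2, chr12:32756076-32756105, minus strand: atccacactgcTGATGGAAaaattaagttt

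The match began at position −33 from the start site in GARS, −13 in IARS, −4 in MARS and 14 in NARS, and farther away in AARS at −187 and YARS2 at −197. CARS and TARS also held it, at −2 and 2. In GARS, CARS and TARS it lay in 1 of 2 windows each. The core is a description of the letters in these windows, and no match elsewhere says only that the letters are not there. DARS, LARS, VARS, YARS, AARS2 and VARS2 had no window.

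In mock cells the cytosolic rows lay above the mitochondrial ones per unit of length. CPM scaled by TMM factors (scaled CPM, counts relative to library size) and divided by transcript length in kilobases had a median over the 3 mock libraries of 91.4 among the 16 cytosolic rows (1.93 to 225) and 24.2 among the 13 mitochondrial rows (1.01 to 82.9). MARS, the methionine enzyme, led at 225 per kilobase, followed by NARS, the asparagine enzyme, at 166, although NARS was the higher in the stress-set library. XPOT, GARS, FARSA and YARS came next at 121, 120, 114 and 113, and their order changed between libraries. IARS2, the mitochondrial isoleucine enzyme, was the highest mitochondrial row at 82.9, and its order with RARS at 77.7 also changed. IARS, KARS, SARS2 and WARS2 stood at 10.7, 1.93, 2.06 and 1.01, and a single transcript row need not be the total of its gene.

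Glucose deprivation went with higher levels of 9 of the 16 cytosolic synthetases and of XPOT, led by SARS (log2 change 1.08) and AARS (0.94), while 1 of 13 mitochondrial synthetases was higher and 1 was lower. The calls come from edgeR's quasi-likelihood test over the 6 GD and mock libraries with set and genotype as terms, at an adjusted p under 0.05. Over all 10368 transcripts the same test called 9.75% higher and 11.1% lower, so the cytosolic count stood above the background and the mitochondrial counts near it or below. The median log2 change was 0.42 over the cytosolic rows, 0.07 over the mitochondrial rows and −0.02 over all transcripts. With library totals in place of TMM factors the balance over all transcripts moved to 683 higher and 1526 lower, against 1011 and 1153, while the cytosolic count stayed at 9 higher and 0 lower and the mitochondrial median fell just below 0, at −0.01.

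**Figure D1:**
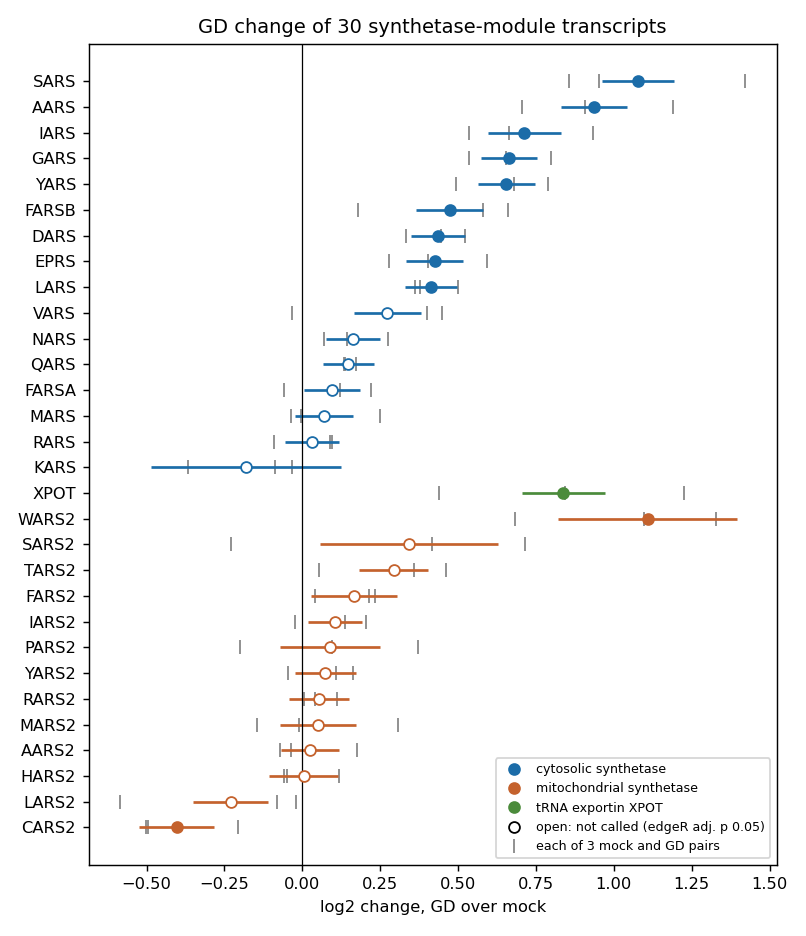
The log2 change of GD over mock for the 30 tested transcripts, with circles for the fitted value, bars for its standard error and ticks for each of the 3 mock and GD pairs. The 9 called cytosolic rows and XPOT lie between 0.41 and 1.08, and the mitochondrial rows other than WARS2 lie between −0.40 and 0.34.

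SARS, which charges serine tRNA, had 435, 355 and 328 scaled CPM in GD (stress-set WT, genotype-set WT and deficient) and 162, 183 and 181 in mock. Every GD library stood above every mock library. The log2 change was 1.08 (SE 0.116, n = 3 pairs, edgeR adjusted p = 0.0005485).

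AARS, the alanine enzyme, had 805, 776 and 422 scaled CPM in GD in the same order and 352, 414 and 259 in mock. The deficient GD library lay just above the highest mock library, and both WT GD libraries lay far above it. Its log2 change was 0.94 (SE 0.105, n = 3 pairs, edgeR adjusted p = 0.0007144).

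GARS, the glycine enzyme that also serves mitochondria, had 566, 548 and 413 scaled CPM in GD and 359, 315 and 285 in mock. YARS, the tyrosine enzyme, had 589, 642 and 488 in GD and 367, 372 and 346 in mock. The groups did not overlap for either gene, and the log2 changes were 0.66 (SE 0.0890, edgeR adjusted p = 0.001563) for GARS and 0.65 (SE 0.0912, edgeR adjusted p = 0.001809) for YARS, with n = 3 pairs each.

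IARS, the isoleucine enzyme of the multisynthetase complex, had 56.2, 79.7 and 72.4 scaled CPM in GD and 29.2, 50.2 and 49.9 in mock, a log2 change of 0.71 (SE 0.117, edgeR adjusted p = 0.003814). Its groups did not overlap. FARSB, the beta subunit of the phenylalanine enzyme, had 212, 191 and 173 in GD and 187, 128 and 109 in mock, so the groups overlapped between sets while GD was higher in each pair. Its log2 change was 0.47 (SE 0.108, edgeR adjusted p = 0.01485), against 0.10 for FARSA, the alpha subunit of the same enzyme, which was not called (edgeR adjusted p = 0.487) and had 127, 226 and 242 in GD and 132, 208 and 207 in mock.

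DARS, EPRS and LARS, the aspartate, glutamate-proline and leucine enzymes, all belong to the multisynthetase complex. DARS had 201, 188 and 194 scaled CPM in GD and 160, 138 and 135 in mock, with no overlap. EPRS had 829, 776 and 674 in GD and 683, 515 and 510 in mock, and LARS had 651, 573 and 497 in GD and 501, 405 and 387 in mock. In both of these the deficient GD library lay just under the stress-set mock library, and GD was higher within every pair. The log2 changes were 0.43 for DARS, 0.42 for EPRS and 0.41 for LARS (edgeR adjusted p = 0.008751, 0.01243 and 0.009701).

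The other 7 tested cytosolic rows were not called, with log2 changes of 0.27 for VARS (valine), 0.16 for NARS, 0.15 for QARS (glutamine), 0.10 for FARSA, 0.07 for MARS, 0.03 for RARS (arginine) and −0.18 for KARS (lysine). KARS had only 2.94 to 4.99 scaled CPM over the 7 libraries. By place, 4 of 8 enzymes in the multisynthetase complex were called higher (median log2 change 0.28) and 5 of 8 outside it (median 0.56). By fold, 3 of 7 class I and 5 of 8 class II enzymes were called higher, with EPRS, which holds both, counted apart. Each of these groups stood above the 9.75% of all transcripts called higher, and differences between groups were not tested. AIMP2, the tested member of the complex's scaffold, had a log2 change of 0.12 and was not called.

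XPOT drew the most reads of the module, with 2224, 1256 and 1055 scaled CPM in GD and 951, 699 and 777 in mock. No GD library overlapped a mock library, and the stress-set GD library stood well above the other two. Its log2 change was 0.84 (SE 0.134, n = 3 pairs, edgeR adjusted p = 0.003387), and the pairs gave 1.23 for stress-set WT, 0.84 for genotype-set WT and 0.44 for deficient cells.

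**Figure D2:**
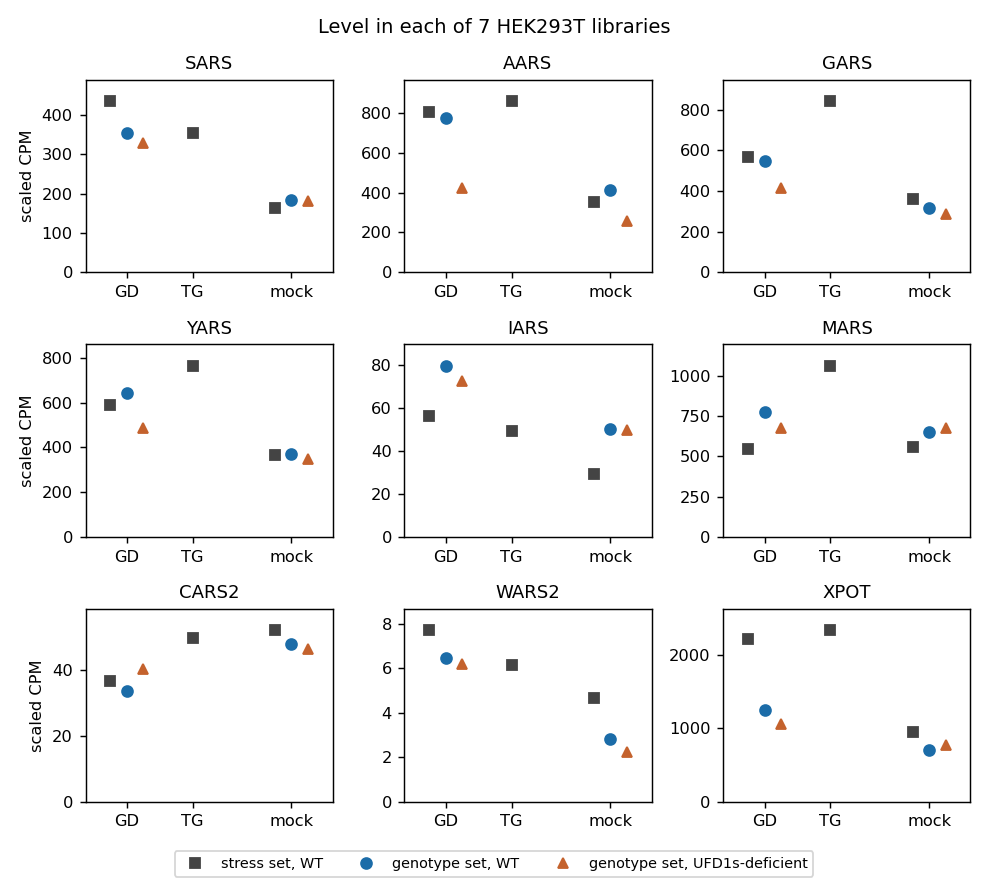
Scaled CPM of 9 members in each of the 7 libraries, with GD left, TG in the middle and mock right, and with shapes for set and genotype. SARS, AARS, GARS, YARS, IARS, XPOT and, on few reads, WARS2 stand higher in every GD library than in any mock library. CARS2 stands lower in every GD library, and MARS is highest in TG at 1062. The share of all transcripts that separate in this way is not given here.

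Among mitochondrial members, CARS2, the cysteine enzyme, had 36.6, 33.6 and 40.1 scaled CPM in GD and 51.8, 47.8 and 46.3 in mock. All GD libraries were below all mock libraries, and the log2 change was −0.40 (SE 0.121, n = 3 pairs, edgeR adjusted p = 0.0425). WARS2, the tryptophan enzyme, had 7.71, 6.46 and 6.19 in GD and 4.66, 2.82 and 2.24 in mock, a log2 change of 1.11 (SE 0.286, n = 3 pairs, edgeR adjusted p = 0.0243) on a row with few reads.

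The other 11 tested mitochondrial rows had log2 changes from −0.23 (LARS2, leucine) to 0.34 (SARS2, serine). IARS2 had 403, 324 and 301 scaled CPM in GD and 409, 295 and 261 in mock, a log2 change of 0.11. AARS2 had 87.9, 145 and 155 in GD and 92.4, 149 and 138 in mock, a log2 change of 0.02, where its cytosolic counterpart AARS was called. For 7 amino acids both compartments had a tested row of the same name, and the cytosolic log2 change was the larger in 6. The differences were 0.91 for alanine, 0.74 for serine, 0.64 for leucine, 0.61 for isoleucine, 0.58 for tyrosine, 0.02 for methionine and −0.02 for arginine. Among members, phenylalanine and proline also had tested rows in both compartments, under other names. FARSB (0.47) stood above FARS2 (0.16) and FARSA (0.10) below it, and EPRS (0.42) stood above PARS2 (0.09).

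The GD calls of DARS, EPRS, FARSB, LARS, WARS2 and CARS2 depended on which mock and GD pairs were in the fit. With set and genotype as terms, a library whose partner is left out no longer bears on the GD change. Leaving out either library of a pair therefore removes the pair, and the 2 runs are not separate checks. Without any 1 of the 4 genotype-set libraries, 5 cytosolic synthetases (SARS, AARS, IARS, GARS and YARS) and XPOT were called, and 0 mitochondrial ones in either direction, beside 2.11% to 5.22% of all transcripts called higher. Without the stress-set WT mock or WT GD library, 13 or 14 cytosolic and 3 mitochondrial synthetases were called higher, beside 18% or 19% of all transcripts, so the mitochondrial count was near that share.

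Pair by pair, with no test, a member counted as higher from 1.5-fold upward if the larger of its 2 counts reached 50 reads. In the WT stress set 5 of 16 cytosolic rows passed, beside 11.1% of all transcripts, and in genotype-set WT cells 8 of 18 passed, beside 8.97%. In deficient cells 5 of 18 passed, beside 8.4%. XPOT passed in both WT pairs and not in the deficient pair. Mitochondrial rows passed in 1 of 13, 2 of 15 and 2 of 15 cases in the same order of pairs. The median log2 change of the cytosolic rows was 0.23 in the WT stress set, 0.47 in genotype-set WT cells and 0.42 in deficient cells, and that of the mitochondrial rows was −0.05, 0.12 and 0.17.

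Some of these counts include rows found in the genotype table alone or on another transcript. WARS, the tryptophan enzyme of the cytosol, had 127 reads in WT GD, 74 in WT mock, 80 in deficient GD and 56 in deficient mock, and HARS, the histidine enzyme, had 52, 28, 40 and 34 in the same order. CARS, counted on a noncoding transcript (NR_036542.1), had 37, 30, 70 and 16. In the stress set, WARS had 18 reads in GD, 40 in TG and 22 in mock, NARS2 had 2, 8 and 0, EARS2 had 16, 35 and 22, and VARS2 had 8, 6 and 6, all below the 50 reads asked for.

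Summed over the 16 cytosolic rows, GD libraries held 6350 scaled CPM for stress-set WT cells, 6554 for genotype-set WT cells and 5596 for deficient cells, against 4761, 4568 and 4383 in mock. The 13 mitochondrial rows summed to 1018, 1054 and 1026 in GD and 1085, 998 and 932 in mock. The ratio of the sums was 6.24, 6.22 and 5.46 in GD and 4.39, 4.58 and 4.70 in mock, so the groups did not overlap. The TG library had 7838 for the cytosolic rows, 1043 for the mitochondrial rows and a ratio of 7.51, above the other 6 libraries.

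**Figure D3:**
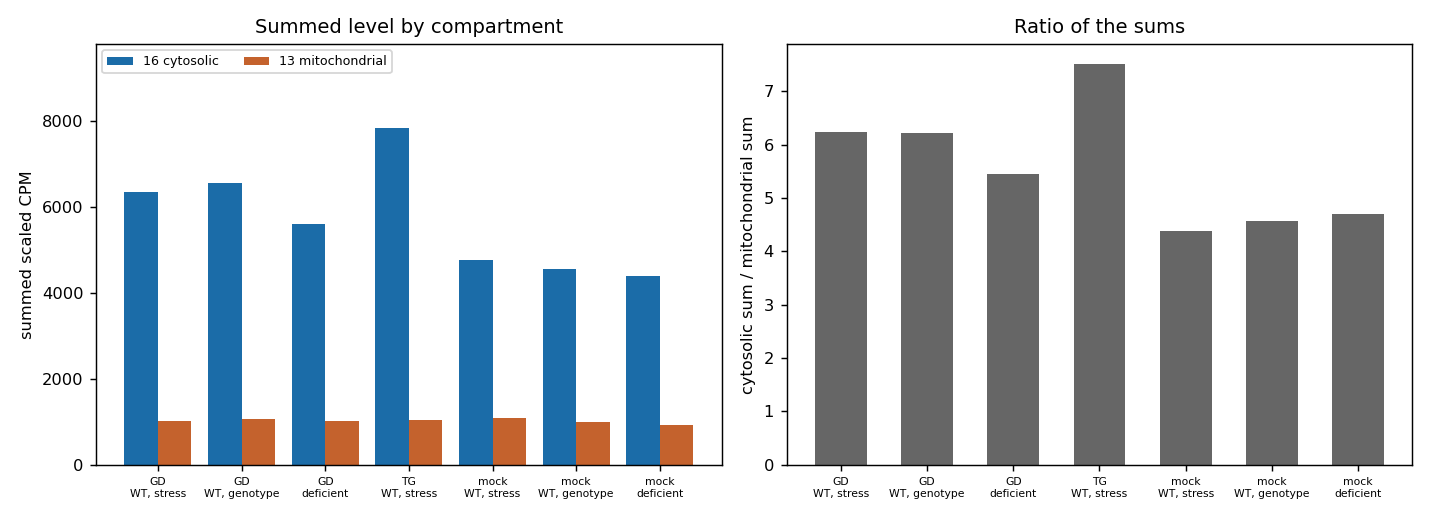
Summed scaled CPM of the 16 cytosolic and 13 mitochondrial rows in each library (left) and the ratio of the sums (right), with GD, TG and mock from left to right. The mitochondrial sum stays between 932 and 1085, and the ratio is 4.39 to 4.70 in mock and 5.46 to 7.51 under stress.

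TG was set against mock in WT cells of the stress set, with 1 library each and therefore no test. The counting intervals given cover counting error only. At 2-fold or more, 4 of 16 cytosolic synthetases and XPOT were higher, beside 4.75% of 9116 transcripts with enough reads, and 0 of 13 mitochondrial synthetases passed in either direction. At 1.5-fold or more, 8 cytosolic and 0 mitochondrial rows were higher, beside 12% of all transcripts, and none of the 30 members was lower, beside 10.6%. The median log2 ratio was 0.60 for cytosolic, 0.10 for mitochondrial and 0.01 for all rows. Library totals in place of TMM factors lower every TG log2 ratio by 0.11, which left 3 cytosolic rows at 2-fold and a mitochondrial median of −0.02.

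AARS had 861 scaled CPM in TG and 352 in mock, 2.44-fold (95% interval 2.37 to 2.52). GARS had 842 in TG and 359 in mock, 2.34-fold (2.27 to 2.42), and SARS had 353 and 162, 2.18-fold (2.08 to 2.28). YARS reached 764 in TG, against 367 in mock, 2.08-fold (2.02 to 2.15). XPOT had 2339.5 in TG and 951 in mock, 2.46-fold (2.42 to 2.51), so these 5 rows stood highest in fold among the members with enough reads.

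MARS was 1.91-fold higher in TG (1062 scaled CPM, against 557 in mock), IARS 1.69-fold, KARS 1.58-fold on 82 and 50 reads, and FARSA 1.53-fold. FARSB and NARS lay just outside 1.5-fold, at log2 ratios of 0.58 and 0.57, and EPRS and LARS stood at 1.42-fold and 1.31-fold. DARS, VARS and RARS lay at 1.14-fold, 1.14-fold and 1.10-fold, and QARS at 0.886-fold. The mitochondrial rows ran from IARS2 at 0.849-fold to WARS2 at 1.32-fold, WARS2 on 101 and 74 reads. For the 7 amino acids with a tested row of the same name in each compartment, the cytosolic log2 ratio was larger in 7 of 7. The difference ran from 1.19 for alanine down to 0.18 for arginine. Under other names, FARSA (0.62) and FARSB (0.58) stood above FARS2 (0.10), and EPRS (0.51) above PARS2 (−0.17).

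**Figure D4:**
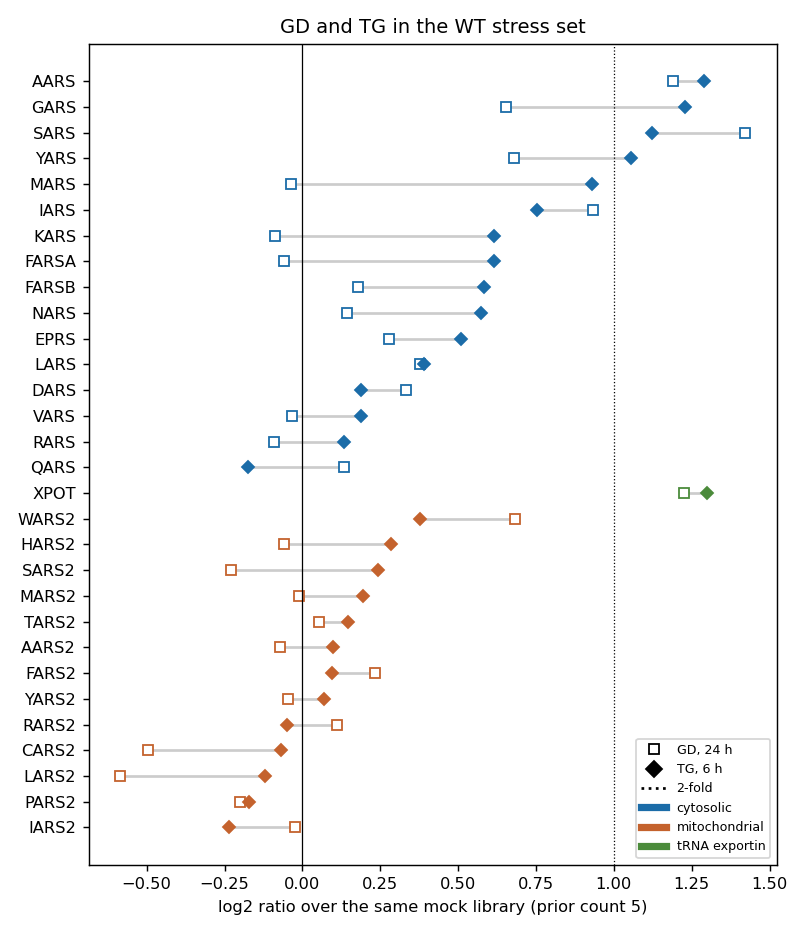
Log2 ratios of GD (open squares) and TG (filled diamonds) over the same stress-set mock library for the 30 members. AARS, GARS, SARS, YARS and XPOT lie past 2-fold in TG, and MARS, KARS and FARSA are near 0 in GD and between 0.62 and 0.93 in TG.

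GD and TG in the stress set share their mock library, and they differ in length, at 24 h and 6 h, so their values are given side by side. AARS had log2 ratios of 1.19 in GD and 1.29 in TG, XPOT 1.23 and 1.30, and LARS 0.38 and 0.39. SARS had 1.42 in GD and 1.12 in TG, and IARS 0.93 and 0.75. MARS had −0.04 in GD and 0.93 in TG, FARSA −0.06 and 0.62, KARS −0.09 and 0.62, and GARS 0.65 and 1.23. Set directly against GD, TG was higher at 1.5-fold or more for 3 of 16 cytosolic rows, beside 14% of all transcripts, and lower for 0, beside 11.5%. These were MARS at 1.95-fold (1.90 to 2.01), KARS at 1.70-fold on 82 and 32 reads and FARSA at 1.60-fold, with GARS just outside at 1.49-fold. No mitochondrial row passed, and the largest ratio among those with enough reads was SARS2 at 1.43-fold, on 67 and 31 reads. LARS2 and CARS2, which were the lowest in GD, were 1.38-fold and 1.35-fold higher in TG than in GD. The same GD library picked these 2 rows and divides them, so ratios above 1 are partly set by that choice.

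Set against the promoter search, the 5 tested cytosolic genes with the C/EBP-ATF core (AARS, GARS, IARS, MARS and NARS) had a median log2 change of 0.66 in GD with 3 called higher, and a median log2 ratio of 0.93 in TG. The 7 with a window and no core (EPRS, FARSA, FARSB, KARS, QARS, RARS and SARS) had 0.15 in GD with 3 called higher, and 0.58 in TG. Over all transcripts 9.75% were called higher in GD, so both counts stood above that share. SARS and XPOT, among the largest changes of the module, had windows without the core, and YARS2, which has it, had 0.07 in GD and 0.07 in TG. The window starts of XPOT, NARS and FARSB did not lie at a GENCODE transcript start, so their windows are less sure. The difference between these small groups was not tested.

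Between genotypes, 1 of the 30 tested members differed. UFD1s-deficient cells had less AARS, with 422 scaled CPM in deficient GD and 259 in deficient mock, against 776 in WT GD and 414 in WT mock of the same set. Each deficient library was below the WT library of the same treatment, and the log2 difference was −0.77 (SE 0.129, edgeR adjusted p = 0.0291). Over all transcripts 0.328% were called higher and 0.781% lower in deficient cells. The authors' deposited table gives −0.690 (p = 0.095) for AARS in mock and −0.877 (p = 0.0342) in GD. The call was lost without deficient mock (−0.95, edgeR adjusted p = 0.317), without deficient GD (−0.61, edgeR adjusted p = 0.754) and without WT mock of the genotype set (−0.75, edgeR adjusted p = 0.0555).

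AARS lies on chromosome 16, where transcripts as a whole were lower in deficient cells. The median log2 difference of the 438 tested transcripts there was −0.45, with 401 below 0 (91.6%) and 37 called lower. Chromosome 7 had a median of −0.36 over 471 transcripts, and every other chromosome lay between −0.08 and 0.11. Of the 20 tested transcripts nearest to AARS, 10 on each side, 20 were below 0, with a median of −0.55 (−0.98 to −0.31), so AARS stood 0.23 below that median (−0.23). A difference of AARS of its own and one shared with its chromosome cannot be told apart here.

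**Figure D5:**
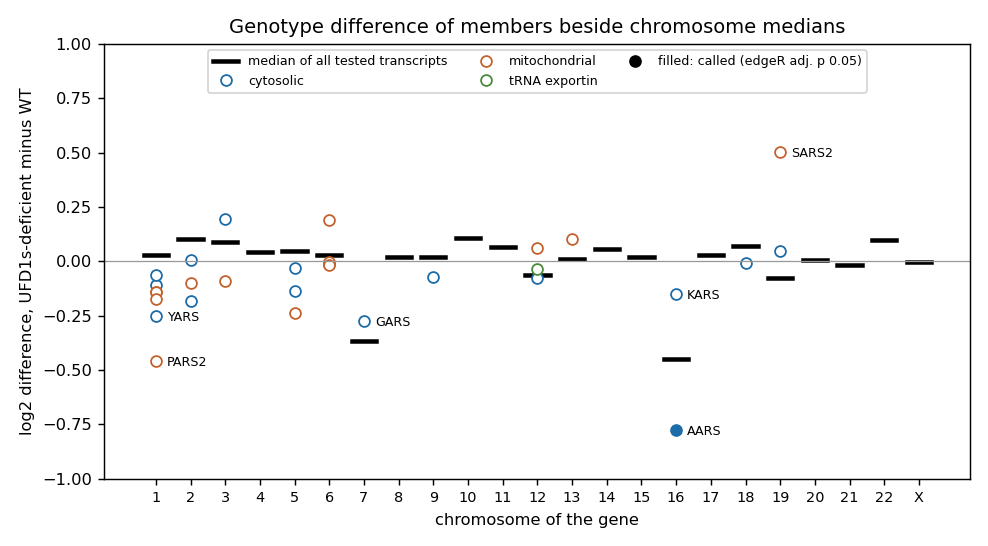
The log2 difference of UFD1s-deficient minus WT cells for each of the 30 members, placed by chromosome, beside the median of all tested transcripts on that chromosome (black bars). The medians of chromosomes 7 and 16 lie at −0.36 and −0.45, and AARS, the filled point, lies lower at −0.77.

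The other members on those chromosomes were not called. GARS on chromosome 7 had a log2 difference of −0.27 (edgeR adjusted p = 0.285), with a median of −0.21 for its 20 nearest tested transcripts. KARS on chromosome 16 had −0.15, with −0.43 for its neighbours, at low counts. EARS2, the mitochondrial glutamate enzyme, is also on chromosome 16 and had 92 reads in deficient GD, 36 in deficient mock, 156 in WT GD and 128 in WT mock. The authors' deposited table gives log2 ratios for EARS2 of −1.909 (p = 0.000133) in mock and −0.822 (p = 0.0748) in GD, and EARS2 was outside the fit because the stress set counts another transcript.

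Over all members the genotype differences were small. The median log2 difference was −0.07 over the cytosolic rows, −0.09 over the mitochondrial rows and 0.01 over all transcripts. Among the tested members, beside AARS at −0.77, the values farthest from 0 were PARS2, the mitochondrial proline enzyme, at −0.46 (edgeR adjusted p = 0.333) and SARS2 at 0.50 (edgeR adjusted p = 0.583), and YARS had −0.25 (edgeR adjusted p = 0.352). Rows outside the fit had log2 ratios of deficient over WT in the genotype set, without a test. In mock and GD these were −1.76 and −0.79 for EARS2 and −0.44 and −0.69 for WARS. CARS had −0.79 and 0.78, HARS 0.18 and −0.40, and NARS2 −0.17 and −0.19, with CARS and HARS on few reads. XPOT stood at −0.04.

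Whether GD changed the module differently in deficient cells was tested as an interaction with 1 residual degree of freedom. edgeR called 0 of 10368 transcripts (0%), with 123 (1.19%) at an unadjusted p under 0.05, none of them a member, and DESeq2 called 0 as well. The WT response in this test rests on the WT pairs of both sets. The stress set holds no deficient library, so a difference between sets enters the result. The largest member difference was XPOT at −0.60 on the log2 scale (deficient minus WT response), and it was not called. Its pairs gave 0.44 in deficient cells, 0.84 in WT cells of the same set and 1.23 in stress-set WT cells. AARS had −0.34. The power of this test was not computed, so the absence of calls does not show that the responses are alike.

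Around the synthetases, the list for cytosolic elongation held 7 tested genes, namely elongation factors and the kinase of EEF2. Of the 7, 4 were called higher in GD, beside 9.75% of all transcripts. These were EEF1D, EEF2, EEF1A1 and EEF1G, with log2 changes of 0.80, 0.56, 0.46 and 0.31, where EEF1A1 brings charged tRNA to the ribosome and EEF2 moves the ribosome along. The EEF1D row was low, at 8.83 to 25.6 scaled CPM. In TG the log2 ratios over mock were −0.52, 0.14, 0.04 and 0.05 in the same order. Of the mitochondrial factors, 0 of 2 were called in GD by edgeR (TUFM 0.02 and GFM1 0.13). TUFM, the mitochondrial counterpart of EEF1A1, was called lower in deficient cells at −0.55 (edgeR adjusted p = 0.0395). TUFM lies on chromosome 16, whose median was −0.45, and a difference of its own cannot be told apart from that of the chromosome. Among other genes of tRNA charging in mitochondria, QRSL1, a subunit of the glutamine amidotransferase, was called higher in GD at 0.63, while GATB had 0.03 and MTFMT −0.05.

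Of the genes that make and process tRNA, some were called in each direction in GD, and the counts are to be read against the 9.75% called higher and 11.1% called lower over all transcripts. Among 19 tested genes of tRNA processing and export, RPP40 (0.72), TRMT61A (0.61) and XPO5 (0.31) were called higher and RPP30 (−0.38) lower, RPP40 and RPP30 being subunits of RNase P. Among 14 of RNA polymerase III and its factors, POLR3D (0.76), GTF3C3 (0.60) and BDP1 (0.31) were called higher and POLR3G (−0.55), POLR3K (−0.37) and GTF3C4 (−0.30) lower. Among 10 of amino acid sensing, SESN2 (1.30) and DDIT4 (1.11), both inhibitors of mTORC1 signalling, and RRAGC (0.61), a Rag GTPase, were called higher and 0 lower. ATF4, singled out after its value was seen, had a log2 change of 0.14 in GD (edgeR adjusted p = 0.611) and a log2 ratio of 0.90 in TG. Its row held 10.6 to 20.0 scaled CPM.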

How the data were processed

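RNA was measured in 7 HEK293T libraries. TRIzol RNA was made into libraries with a ribosomal RNA depletion kit, per the labels' protocols. The tools Bowtie2, bedtools, cutadapt and FastQC and the build hg19 appear in the submitters' processing notes, without versions. How reads were counted, and whether by strand, is not given in the sources used here, so reads of overlapping or antisense genes may be included. The authors deposited raw read counts per RefSeq transcript, not normalized, with 1 row per symbol, in tables of 16120 and 11976 rows. The genotype table adds log2 ratios (deficient over WT) and their p-values as deposited by the authors.

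Transcripts in both tables were fitted with edgeR 4.0.16 in R 4.3.3 (quasi-likelihood test, TMM factors, terms for set, genotype and treatment, 2 residual degrees of freedom, common dispersion 0.0192), with Benjamini-Hochberg adjustment at 0.05 over all 10368. The default expression filter removed 0 rows. The p-values rest on how 3 mock and GD pairs differ, not on repeats within a set. Comparisons with 1 library per condition used scaled CPM (prior count 5), 50 or more reads in the higher library, and exact conditional 95% counting intervals. On simulated counts for 10368 transcripts, edgeR recovered 98% of planted 2-fold GD changes, with 15 false among 213 calls. For genotype it recovered 87%, with 11 false among 198. The simulation held no difference between sets, and changes were planted only in rows with many reads. Changes under 2-fold, as most members had, were not simulated, so these shares do not give the power for them.

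Lengths came from GENCODE v29 transcripts matched by accession, and promoter windows and chromosomes from RefSeq tables on GRCh38.p14, another build than hg19. In 27 of 31 members the window's start lay at a GENCODE transcript start, and in FARSB, NARS, PARS2 and XPOT it did not. All members could be named, and of the accompanying lists up to 4 called genes with the largest GD change and all of the short lists, with ATF4 added after its value was seen. One gene of those lists is not reported here. Members and lists were chosen with earlier results of these data known. Alternatives were RLE factors, library totals, DESeq2 1.42.0, other count filters, subsets of libraries, treatment as the only term, and other folds and prior counts. N2a libraries were not used here.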

Additional observations from a re-analysis of the deposited data

How the results depend on the processing

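No member of the GD comparison that was called changed direction under any alternative run. RLE factors, library totals, DESeq2 and the other count filters kept 9 cytosolic calls higher and 1 mitochondrial. The mitochondrial lower call (CARS2) went to 0 with RLE factors, DESeq2, WT libraries alone and treatment as the only term, and ranged from 0 to 1 when a library was left out. The cytosolic count was 14 in the genotype set alone, 5 in WT libraries alone, 0 with treatment as the only term and 5 to 14 when a library was left out. The mitochondrial higher count was 3, 0, 0 and 0 to 3 in the same order. Over all transcripts, higher calls were 1981, 224, 14 and 219 to 1970, and lower calls 2059, 266, 9 and 268 to 2069. For genotype, listed members called were 5 in the genotype set alone and 0 to 6 when a library was left out. All transcripts called were 222 with DESeq2, 1942 in the genotype set alone and 5 to 1938 when a library was left out. The AARS difference ranged from −0.95 to −0.61 when a library was left out. In TG, 8 cytosolic rows passed at 1.5-fold, and with library totals the medians were 0.49 (cytosolic) and −0.0167 (mitochondrial). Leaving out a deficient library, and leaving out chromosomes 7 and 16 (7 cytosolic calls, without AARS and GARS), were added after seeing the data. In each case the cause was not tested. The ribosomal precursor was not among the shared transcripts, so leaving it out was not run. The labels carry no replicate numbers, and set and genotype already pair each GD library with its mock library in the fit. Depth limits KARS, SARS2 and WARS2.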
